A study of Sus scrofa with 57 samples.

Results

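The genes described here are 7 members of insulin signalling and glucose uptake in adipocytes of pigs: INSR, IRS1, AKT2, SLC2A4, RHOQ, MTOR and INPP5D. They were chosen as a list of symbols, with earlier results of these data known. In the expression tables they have 9 of 25285 gene identifiers. INSR has 2 entries next to each other on chromosome 2, SLC2A4 has 2 entries on chromosomes 3 and 12, and MTOR stands under its older symbol FRAP1 and was found by its identifier in a reference list of names. All regions of differing DNA methylation that lie in these loci or within 50000 bases of them were described as well, which came to 17 of 7401 captured regions and 2 of 610 regions from bisulfite sequencing.

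The methods name the pigs as Duroc-Göttingen minipig F2 animals of a population bred from Göttingen minipigs and production pigs (Duroc and Yorkshire). They were taken from its lean and obese extremes. The sources used here name no genotype or treatment for the groups, so genetic differences between them are unknown. Mature adipocytes were the cells that floated up after retroperitoneal fat had been digested with collagenase, filtered and washed. RNAseq was made for 5 lean and 5 obese males. The DNA samples were those of 12 obese pigs (8 males and 4 females) and of 10 lean pigs (8 males and 2 females). A further sample was that of 1 female, pig-411, which is labelled obese but listed with the lean libraries in the captured DNA comparison. The paper counts 12 obese and 11 lean animals, after 1 lean female was excluded from 4 sows per group. Those counts are met when pig-411 is taken as lean. The RRBS means carry no list of pigs. The sources give ages as a mean per group and as a range for the whole population but not per pig, and age did not enter the tests. The comparison of captured DNA lists 11 libraries per group, with obese pig-584 in neither group, and its values are unnamed, so pig-411 could not be left out of it.

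Insulin binds the receptor INSR, a tyrosine kinase, which phosphorylates the adaptor IRS1 and thereby recruits PI3-kinase. The lipid made by PI3-kinase brings AKT2 to the membrane, and AKT2 acts on the transporter GLUT4 (the product of SLC2A4), which moves from internal vesicles to the cell surface and takes up glucose in fat and muscle. RHOQ (TC10) is a small GTPase of a PI3-kinase independent arm of GLUT4 traffic, MTOR is the kinase that links insulin and nutrients to protein synthesis and lipid storage, and INPP5D (SHIP1) is a phosphatase that removes a phosphate from the PI3-kinase lipid and is best known from blood cells.

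One stretch of DNA at these genes can be shown base by base. It lies in MTOR at chr6:65230954-65230982 (Sscrofa10.2), was taken from the supplementary material of the study, and is printed because it sits inside the stretch of MTOR whose methylation was measured in both depositions of the bisulfite data. The capitals mark its 1 CpG, the kind of site at which methylation was read.
MTOR: atgaaacccatctgCGcagagggaagaag

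The expression values of this text are FPKM (fragments per unit of transcript length, corrected for library size), which the authors estimated with Cufflinks, divided here by a size factor of each library. Between 8950 and 10291 genes had an FPKM of at least 1 in a library, and the size factors ran from 0.693 to 1.23, with the second library of obese pig-572 the lowest in both. The 2 libraries titled with that pig's number were averaged and counted as 1 pig, although the description of the second carries another number, so it is uncertain that both are of 1 animal. Counted as separate replicates they raised the number of genes past the adjusted threshold from 1 to 178, none of them a member. Adipocyte genes were high in both groups: the summed level of 6 measured markers was 1056 to 1288 in lean and 1004 to 1442 in obese pigs. Macrophage and leukocyte genes were low, with a summed level over 13 genes of 5.44 to 12.5 in lean and 5.54 to 10.9 in obese pigs. Of their 14 entries 3 had a mean FPKM of at least 1, while CD163 was listed at 0 in all 10 pigs. Fibroblast genes were present, with a summed level of 225 to 688 in lean and 248 to 616 in obese pigs that came mostly from COL3A1 (means of 419 and 372). In bulk samples, fewer cells of a type and less RNA per cell cannot be told apart. Whether the pigs within a group were related is not given in the sources used here, and p-values measure the spread between these pigs.

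The genes covered a range of levels from AKT2 to INPP5D. AKT2 was the highest, with a mean of 212 over all pigs, and it stood above every other member in 10 of 10 pigs. SLC2A4 on chromosome 3 (58.0) and RHOQ (56.7) followed, with SLC2A4 the higher of both in 5 of 10 pigs. Their order differed between the groups. The mean of SLC2A4 was 52.9 in lean and 63.1 in obese pigs, and that of RHOQ 38.0 in lean and 75.3 in obese pigs. SLC2A4 on chromosome 12 came next with 21.2, above the INSR entries in 9 of 10 pigs for the nearer of them. The INSR entries had means of 14.3 and 10.7, MTOR 3.49, IRS1 1.83 and INPP5D 0.0486. These levels are per length of transcript, so entries can be set beside each other. INSR and SLC2A4 are each divided between separate entries, so the order is one of entries and not of whole genes. Each order between neighbours below SLC2A4 on chromosome 12, apart from that with INSR, held in 10 of 10 pigs.

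**Figure D1:**
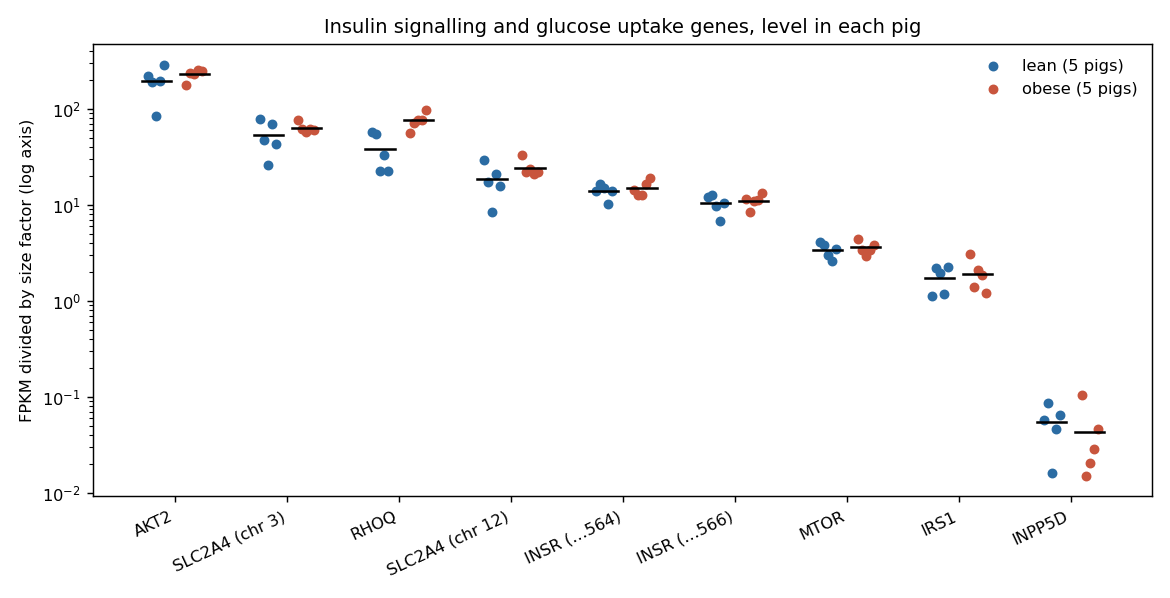
Level of each gene in 5 lean and 5 obese pigs, as FPKM divided by the size factor of the library on a log axis, with a point per pig and a line at the group mean. RHOQ shows 4 of 5 obese pigs above all lean pigs, whereas the points of both groups overlap more widely for the other genes, and INPP5D lies at or below 0.104 in every pig.

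RHOQ showed the widest difference of the members between the groups. In lean pigs its level was 57.4 in pig-402, 54.8 in pig-407, 22.5 in pig-413, 33.0 in pig-525 and 22.3 in pig-577. In obese pigs it was 55.3 in pig-433, 70.3 in pig-473, 77.1 in pig-524, 77.0 in pig-529 and 96.9 in pig-572, whose libraries gave 96.8 and 97.0. The lean pigs fell into a higher pair and 3 lower animals, 4 obese pigs were above all lean pigs, and obese pig-433 was below lean pig-402. The mean was 38.0 ± 17.1 in lean and 75.3 ± 15.0 in obese pigs (SD, n = 5 each), a ratio of 1.98. On the scale of log2(level + 1) the difference was 1.06 (SE 0.29), with a two-sided exact permutation p of 0.0159, where 0.00794 is the smallest that 5 against 5 pigs can give. Over the 10246 genes tested (mean FPKM of 1 or more), the limma p of RHOQ was 0.00382 and its Benjamini-Hochberg adjusted p 0.125, which did not pass the threshold of 0.05. The adjusted p of limma ranged from 0.0552 to 0.278 over the alternatives.

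The level of RHOQ lay opposite to that of early response genes (FOS, JUN, JUNB, EGR1, ATF3, DUSP1, IER2, NR4A1 and DNAJB1), transcripts that rise within minutes when tissue is handled. Their summed level was 1511 in pig-413, 1172 in pig-525 and 1637 in pig-577, the 3 lean pigs in which RHOQ was lowest, against 705 in pig-402 and 523.9 in pig-407. In obese pigs it was 856 in pig-433, 869 in pig-473, 307 in pig-524, 563 in pig-529 and 255 in pig-572. The obese pig with the most RHOQ thus had the lowest sum of early response transcripts, and the lean pig with the least RHOQ the highest. All 8 of these genes that were tested were lower in obese pigs, 5 of them at an unadjusted limma p under 0.05 (as were 10.3% of all tested genes), and their median log2 difference was -1.03. Their part in the difference of RHOQ was not tested.

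**Figure D2:**
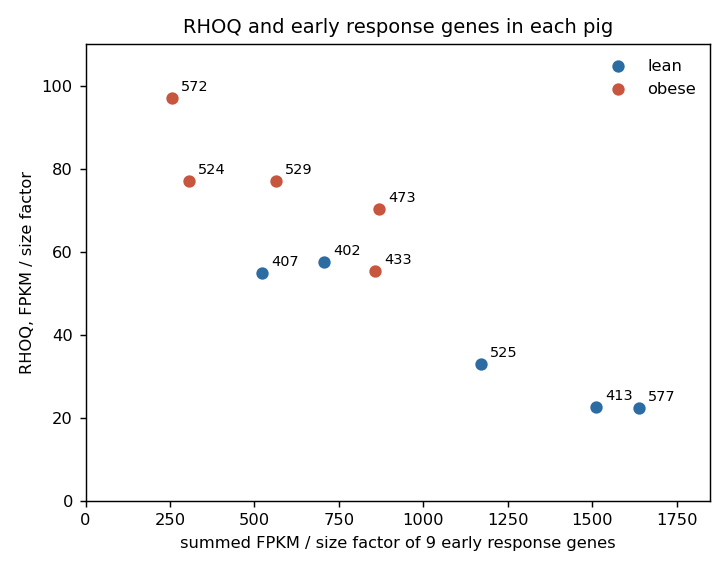
RHOQ (vertical axis) and the summed level of 9 early response genes (horizontal axis) in each pig, both as FPKM divided by the size factor, with the number of the pig beside its point. Lean pig-413, pig-525 and pig-577 lie at the lower right, obese pig-572 at the upper left, and pig-402, pig-407 and pig-433 of both groups lie close together with RHOQ between 54.8 and 57.4.

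SLC2A4, the insulin-regulated glucose transporter, was measured at both of its entries. On chromosome 3 (chr3:139903946-139910176) the lean pigs had 78.1, 47.5, 25.8, 69.96 and 42.9 (pig-402, pig-407, pig-413, pig-525 and pig-577), and the obese pigs had 75.5, 61.3, 56.5, 62.0 and 60.3 (pig-433, pig-473, pig-524, pig-529 and pig-572). The lean values spread on both sides of the obese ones, which lay close together. The means were 52.9 ± 21.1 and 63.1 ± 7.23 (SD, n = 5 each), a log2 difference of 0.34 ± 0.58 (95% interval of limma) with an exact permutation p of 0.262. On chromosome 12 (chr12:54811260-54816695) the lean pigs had 29.4, 17.2, 8.35, 20.7 and 15.8 in the same order and the obese pigs 32.7, 21.8, 23.4, 20.6 and 22.1. The means were 18.3 ± 7.69 and 24.1 ± 4.87, a log2 difference of 0.46 ± 0.60 with an exact permutation p of 0.159. Without lean pig-402, the highest of the lean pigs, this difference was 0.65 with an exact p of 0.0317, and without lean pig-413, the lowest, it was 0.22 with an exact p of 0.317. On chromosome 3 the difference was 0.51 without pig-402 (exact p = 0.0794) but 0.12 without pig-413 (exact p = 0.524). The entries rose and fell together over the pigs (Pearson r = 0.96 over 10 pigs), and as the reference names 1 SLC2A4 gene, how fragments were divided between the loci is uncertain.

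AKT2, the kinase isoform that mediates most of insulin's effect on glucose uptake in fat, was at 220, 190, 83.5, 195 and 288 in lean pig-402, pig-407, pig-413, pig-525 and pig-577. In obese pig-433, pig-473, pig-524, pig-529 and pig-572 it was at 176, 238, 231, 253 and 247. Lean pig-413 had by far the least AKT2 and also the least SLC2A4 at both loci, and lean pig-577 had the most AKT2 of all. The means were 195 ± 73.5 and 229 ± 30.8 (SD, n = 5 each), and the log2 difference of 0.32 ± 0.64 (95% interval) had an exact permutation p of 0.381. Without pig-413 it was 0.05 (exact p = 0.762), and without pig-577 it was 0.49 (exact p = 0.111).

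The insulin receptor and its adaptor differed little between the means. For the INSR entry at chr2:72388087-72425053 the lean pigs ranged from 10.1 to 16.3 and the obese pigs from 12.5 to 19.0, with a log2 difference of 0.11 ± 0.33 (95% interval, exact permutation p = 0.484). For the entry at chr2:72275693-72357630 they ranged from 6.79 to 12.6 and from 8.32 to 13.4, with a difference of 0.10 ± 0.36 (exact permutation p = 0.587). Both entries were highest in obese pig-572 and lowest in lean pig-525, and the ranges of the groups overlapped. IRS1 (chr15:142086244-142089969) was at 1.13, 2.19, 1.96, 1.18 and 2.24 in the lean pigs and at 3.04, 1.41, 2.08, 1.85 and 1.21 in the obese pigs, in the order of pig numbers. Its difference was 0.08 ± 0.41 (95% interval, exact permutation p = 0.706), and obese pig-433 held the highest value.

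MTOR, whose locus also holds the nested gene ANGPTL7, was at 4.12, 3.77, 2.98, 2.60 and 3.49 in the lean pigs and at 4.43, 3.37, 2.96, 3.39 and 3.82 in the obese pigs. The log2 difference was 0.07 ± 0.26 (95% interval, exact permutation p = 0.571), and the groups covered nearly the same range. INPP5D, the phosphatase of blood cells, was at 0.0160 to 0.0862 in lean and at 0.0151 to 0.104 in obese pigs, below the minimum of the test in all of them. Its bounds from Cufflinks reached 46% to 108% of the value to each side, so a difference of these levels was not detectable.

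Of the 8 entries that passed the minimum level, 0 passed the adjusted threshold in limma, where 0.00976% of all tested genes did (1 gene), and 1 had an unadjusted p under 0.05, where 20.8% of all tested genes did. The log2 differences of all 8 were above 0, from 0.07 for MTOR to 1.06 for RHOQ, while the median over all tested genes was -0.0023. The 8 are not separate genes, since INSR and SLC2A4 are each counted by both of their entries. Those entries moved together over the 10 pigs (Pearson r = 0.85 for INSR and 0.96 for SLC2A4). The sign of the smaller differences hung on single pigs: it turned for 1 INSR entry and for MTOR without lean pig-525, and for IRS1 without lean pig-402 or obese pig-433.

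Across the 10 pigs the tested members did not form 1 pattern. Beside the doubled entries, the highest correlation was that of the INSR entry at the lower coordinates with MTOR (r = 0.73), followed by RHOQ with SLC2A4 on chromosome 12 (r = 0.64), and the lowest was that of IRS1 with SLC2A4 on chromosome 3 (r = -0.27). These values are descriptions over pigs of both groups. Among all tested genes, CALD1 (r = 0.98) and FAM190B (r = 0.98) were most like RHOQ, RAB14 (r = 0.99) and GOSR2 (r = 0.98) most like SLC2A4 on chromosome 12, CWF19L1 (r = 0.97) and a gene without a name (r = 0.97) most like SLC2A4 on chromosome 3, and COL5A2 (r = 0.94) and ALDH7A1 (r = 0.94) most like AKT2. For MTOR they were NUP214 (r = 0.97) and UBE3C (r = 0.95), for IRS1 C1ORF198 (r = 0.90) and MYD88 (r = 0.90), and for the INSR entries THNSL2 (r = 0.95) and ARHGEF26 (r = 0.95), and AIFM3 (r = 0.98) and TMEM218 (r = 0.97). All are over 10 pigs, and 105 genes had an r above 0.9 with RHOQ but 1 gene with IRS1.

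The other genes of the pathway were described from 8 lists, which hold 121 genes beside the members. Of 97 tested entries among them, 0 passed the adjusted threshold in limma, 12 were higher and 7 lower in obese pigs at an unadjusted p under 0.05 (19.6%, against 20.8% of all tested genes, of which 10.5% higher and 10.3% lower), and their median log2 difference was 0.10. The share past the unadjusted threshold was thus near that of all genes. The differences named in the next paragraphs are differences of log2(level + 1) with SE, and none of them passed the adjusted threshold. The genes named there were picked for the lowest limma p of their list, so that their groups lie apart follows in part from the choice.

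**Figure D3:**
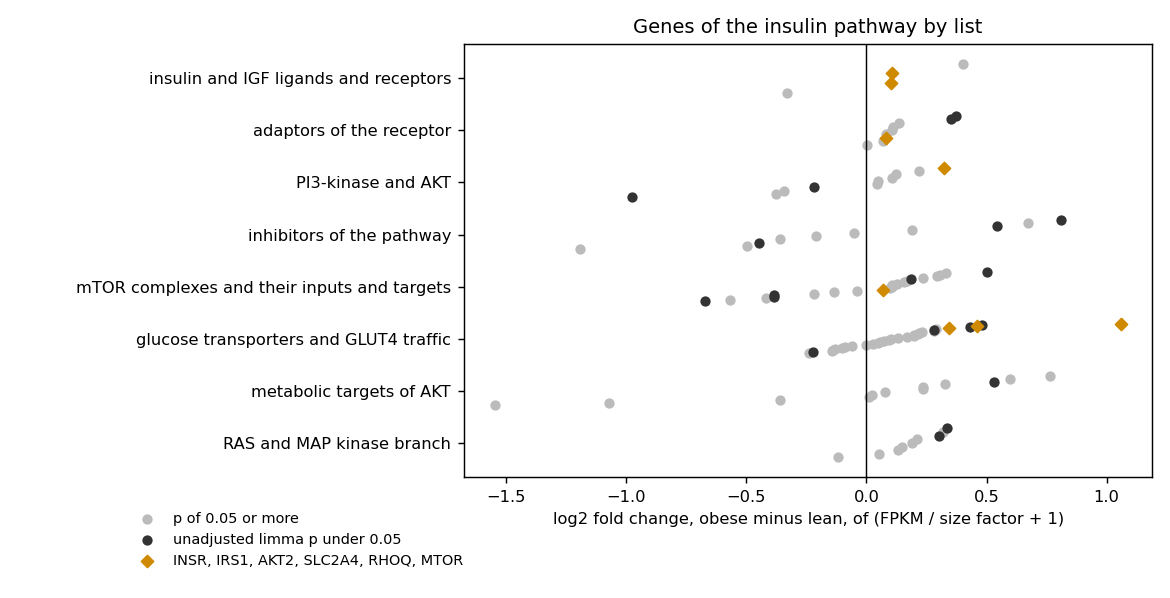
Difference between the groups for each tested entry of the 8 lists, as log2 fold change of (FPKM / size factor + 1), obese minus lean, with dark points for an unadjusted limma p under 0.05 and diamonds for the entries of the 6 tested member genes. RHOQ at 1.06 lies apart from the other genes of GLUT4 traffic.

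Among receptors and ligands, none of 2 tested non-members reached an unadjusted p under 0.05. IGF1, a ligand of the related IGF1 receptor, had a difference of -0.33 (SE 0.28) and IGF2R, which clears IGF2, 0.40 (SE 0.26). Among adaptors 2 of 8 did, both higher in obese pigs, among them SOS1, which activates RAS, with 0.35 (SE 0.13). SH2B1, which enhances receptor signalling, had 0.11 (SE 0.09). Among PI3-kinase and AKT genes 2 of 9 were lower, among them RICTOR, a subunit of mTOR complex 2, with -0.22 (SE 0.09). MAPKAP1 of the same complex had 0.22 (SE 0.11).

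Of the 10 tested inhibitors of the pathway 2 were higher and 1 lower at an unadjusted p under 0.05. INPPL1 (SHIP2), the relative of INPP5D that adipocytes express, was at 6.09, 5.67, 4.07, 4.17 and 5.35 in lean and at 8.31, 6.49, 8.90, 7.10 and 8.31 in obese pigs. All obese pigs were above all lean pigs, as for 2.33% of all tested genes, and the difference was 0.54 (SE 0.12, adjusted p = 0.0974 in limma). TRIB3, which binds AKT, had 0.81 (SE 0.35), and PHLPP1, a phosphatase of AKT, -0.45 (SE 0.19).

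Of the 20 tested non-members around MTOR 2 were higher and 3 lower. RPS6KB1, the S6 kinase that MTOR phosphorylates, was at 8.45 to 10.8 in lean and 12.2 to 16.9 in obese pigs. All obese pigs were above all lean pigs, as for 2.33% of all tested genes. Its difference was 0.50 (SE 0.11, adjusted p = 0.0927 in limma). RRAGB, a GTPase that brings MTOR to the lysosome, has 2 entries of nearly equal level, so the division of fragments between them is uncertain. Both were lower in all 5 obese pigs than in any lean pig, which is the case for 1.81% of all tested genes, with differences of -0.39 (SE 0.08, adjusted p = 0.0888 in limma) and -0.38 (SE 0.09, adjusted p = 0.0974).

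Of 27 tested non-members of GLUT4 traffic 3 were higher and 1 lower. RAPGEF1, the exchange factor of the arm to which RHOQ belongs, was at 1.22 to 1.73 in lean and 2.07 to 2.71 in obese pigs. All obese pigs were above all lean pigs, as for 2.33% of all tested genes. Its difference was 0.43 (SE 0.09, adjusted p = 0.0855 in limma). RALGAPA2, a subunit of the complex that restrains RAL GTPases, had 0.48 (SE 0.20), and EXOC2, of the exocyst that tethers vesicles, -0.22 (SE 0.09). Of 12 metabolic targets of AKT 1 was higher: FOXO3, a transcription factor that AKT inhibits, with 0.53 (SE 0.17). HK1, a hexokinase, had 0.76 (SE 0.36) and PPP1R3C, which directs a phosphatase to glycogen, -1.07 (SE 0.51), both with an unadjusted p over 0.05. Of 9 genes of the RAS and MAP kinase branch 2 were higher, among them MAP2K1 with 0.30 (SE 0.12).

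DNA methylation at the loci was measured by capture of methylated fragments (mDNAcap) and by reduced representation bisulfite sequencing (RRBS). The captured regions in the deposited table are those that the authors had already selected as different between these same animals, so the groups differ in each of them by selection, and the values below describe size and spread. The RRBS regions were likewise called by the authors as different between the groups, with a minimum difference of 10 points. That the groups differ in them is therefore also given by selection. Of all captured regions, 96.2% had a limma adjusted p under 0.05, 27.1% being higher and 69% lower in obese pigs. At the 7 genes 17 of 17 had such a p, 12 of them lower (hypo-methylated) and 5 higher (hyper-methylated) in obese pigs, and a lower mean is found in 70.8% of all captured regions. At least 1 region within 50000 bases is found for 28.3% of all gene loci, and it is found for all members except IRS1. Because the members were chosen with earlier results known, the shares of loci here and below are context. They do not test whether these genes carry more regions than others. At least 1 RRBS region lies this near to 5.01% of all loci, or 16% in the table from 3 or more pigs per group, and 66.1% and 61.1% of the RRBS regions were higher in obese pigs. A locus was overlapped by a region for INSR, AKT2, RHOQ, MTOR (2 regions) and INPP5D, against 8.68% of all loci. The members' loci run from 3726 to 126128 bases, and the median over all loci is 8999 bases.

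**Figure D4:**
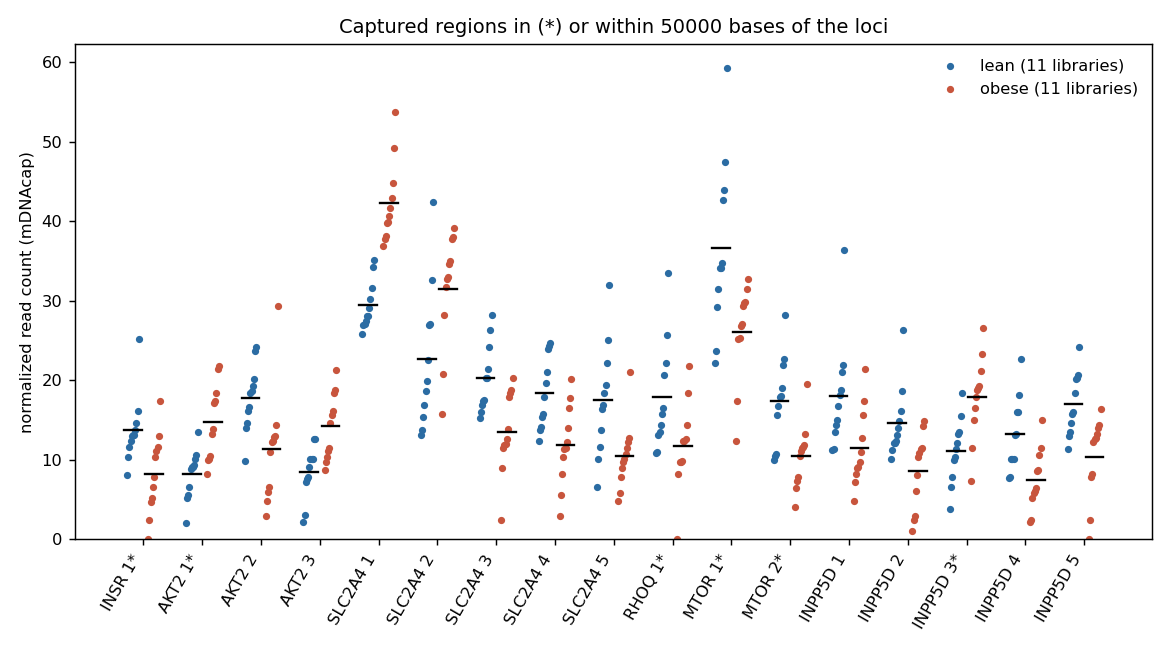
Normalized read count of each of 11 lean and 11 obese libraries in the 17 captured regions at the genes, numbered along the chromosome within a gene (SLC2A4 1 and 2 are on chromosome 3 and 3 to 5 on chromosome 12), with an asterisk where the region overlaps the locus and a line at the group mean. The groups overlap in all regions except SLC2A4 1, where the lowest obese library (36.9) is above the highest lean library (35.2).

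In RHOQ 1 captured region lay inside the locus, at chr3:100077101-100078200. Its normalized count was 10.9 to 33.5 (median 15.7) in lean and 0 to 21.8 (median 12.3) in obese libraries, and 9 of 11 obese libraries were below the lean median. The means were 17.9 ± 6.98 and 11.8 ± 5.63 (SD, n = 11 each), a fall by 34.2%, on about 254 and 172 reads in all. With the library's genome-wide mean count as a covariate, the log2 difference of -0.75 (SE 0.34) shrank to -0.35 with a limma adjusted p of 0.333.

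In MTOR 2 captured regions lay inside the locus and both were lower in obese pigs. At chr6:65265801-65267100 the count was 22.2 to 59.3 (median 34.2) in lean and 12.3 to 32.8 (median 27.1) in obese libraries, with all 11 obese libraries below the lean median. At chr6:65303301-65304900 it was 9.93 to 28.3 (median 17.9) and 4.09 to 19.6 (median 11.2). The means fell by 28.6% and 39.8%. On the log2 scale the first difference was -0.46 as deposited but -0.15 under the median of ratios between libraries and -0.17 when scaled by the libraries' genome-wide mean count (permutation p = 0.376 and 0.411), and the second was -0.70, -0.41 and -0.43. The RRBS values are means of a group without a value per pig and so have no error or test here. These data, from another stretch of MTOR 34674 bases away, had the same direction: at chr6:65230902-65231127, over 15 CpGs, the authors' mean methylation was 69.4% in lean and 58.3% in obese pigs. In the table that asks for 3 or more pigs with values per group, chr6:65230879-65231014 with 10 CpGs had authors' means of 83.0% and 72.5%. The CpG printed above lies inside both. The differences were -11.1 and -10.4 points, near the minimum of 10 points by which RRBS regions were selected.

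INPP5D had the most regions of any single entry, 5 captured ones, a number that 1.47% of all loci reach. SLC2A4 also had 5 captured regions, but divided between its separate entries. At chr15:147615301-147616300, inside the locus, the count was 3.81 to 18.4 (median 11.4) in lean and 7.33 to 26.6 (median 18.8) in obese libraries, with 10 of 11 obese libraries above the lean median. The means were 11.2 ± 4.12 and 17.9 ± 5.30, higher by 60.2% in obese pigs. The same place was measured by RRBS: at chr15:147615426-147615707, within this captured region, the authors' mean over 10 CpGs was 64.6% in lean and 81.4% in obese pigs, a difference of 16.9 points. With at least 3 pigs per group the means were 65.8% and 82.2% at chr15:147615337-147615697. Both assays thus gave more methylation here in obese pigs, in a gene whose transcript was near 0 in both groups. A locus that overlaps regions of both assays occurs for 0.364% of all loci (INPP5D and MTOR among the members).

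The other 4 captured regions around INPP5D were lower in obese pigs. Those at chr15:147595801-147596800 and chr15:147599501-147600600, below the locus, had means of 18.1 ± 7.03 and 14.7 ± 4.55 in lean and 11.5 ± 4.91 and 8.54 ± 4.78 in obese libraries. Those at chr15:147683401-147684400 and chr15:147688501-147689500 overlap the neighbouring gene ATG16L1 and had means of 13.2 ± 4.66 and 17.1 ± 3.96 against 7.53 ± 3.87 and 10.4 ± 5.19. In the RRBS table with at least 3 pigs per group, chr15:147582799-147582908, 23704 bases below the locus, had authors' means of 94.6% in lean and 82.0% in obese pigs. The region inside INPP5D was thus the 1 higher among lower neighbours.

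AKT2 had captured regions of both directions. At chr6:44366201-44367400, inside the locus, the count was 2.02 to 13.6 (median 9.10) in lean and 8.18 to 21.8 (median 13.9) in obese libraries, with 10 of 11 obese libraries above the lean median. The means were 8.20 ± 3.12 and 14.7 ± 4.80, the largest rise among the 17 regions (79.7%), on about 134 and 177 reads in all. Above the locus, chr6:44407701-44408700, which overlaps C19ORF47, was lower with means of 17.8 ± 4.18 and 11.4 ± 7.10, and chr6:44410901-44411900 was higher with 8.44 ± 3.38 and 14.2 ± 4.19. In the RRBS table with at least 3 pigs per group, chr6:44340320-44340512 inside the locus had authors' means of 40.9% in lean and 53.2% in obese pigs, and chr6:44427621-44427765 had 33.7% and 45.1%. Inside AKT2 both assays were therefore higher in obese pigs, at places 25689 bases apart.

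INSR had 1 captured region, chr2:72389301-72390300, near the lower end of the first entry, with counts of 8.09 to 25.2 (median 13.2) in lean and 0 to 17.4 (median 7.84) in obese libraries. Its means were 13.8 ± 4.34 and 8.22 ± 5.08, a fall by 40.3%. SLC2A4 had no region inside either locus. On chromosome 3 both regions were higher in obese pigs: chr3:139858601-139860300, 43646 bases below the locus, with 25.8 to 35.2 in lean and 36.9 to 53.8 in obese libraries, and chr3:139947601-139948600, in NEURL4, with means of 22.7 ± 8.98 and 31.5 ± 7.34. The groups did not overlap in the first of these, which holds for 0.149% of the regions in the table (11 regions). On chromosome 12 all 3 regions lie in ASGR2, between 20260 and 34960 bases below SLC2A4, and were lower in obese pigs, with falls by 33.5%, 35.6% and 39.9%. IRS1, as the expression tables name it, had no captured and no RRBS region within 50000 bases. The study's supplement uses the name IRS1 for another locus without a name in these tables, chr3:7837929-7839602, whose level was 0.605 ± 0.210 in lean and 1.21 ± 0.464 in obese pigs (SD, n = 5 each). RRBS regions lay in that locus at chr3:7838735-7838823, with authors' means of 24.1% in lean and 39.965% in obese pigs, and, from 3 or more pigs per group, at chr3:7838096-7838148 with 16.5% and 4.69%. Which of both loci is IRS1 could not be settled from the files, and the chromosome 3 locus enters no count of members or of their regions.

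**Figure D5:**
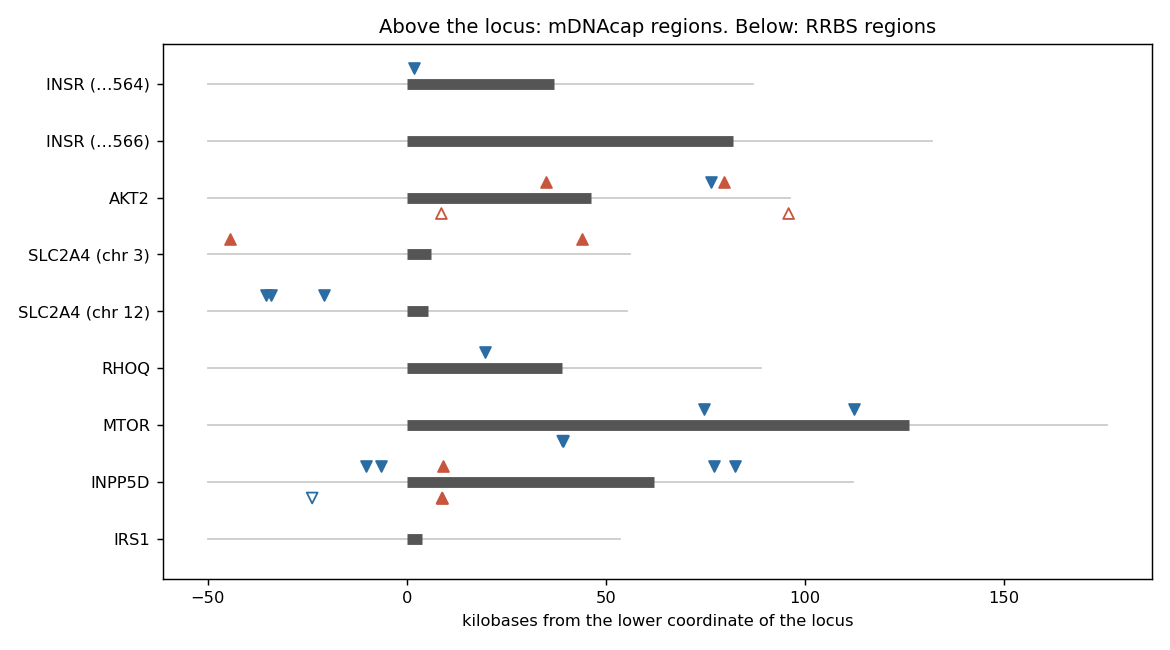
Position of the captured regions (above the line of each entry) and RRBS regions (below it) in kilobases from the lower coordinate of the locus, which is the thick bar, with 50 kilobases to each side and each captured region drawn once, at the nearer entry of its gene. Triangles pointing up are higher and those pointing down lower in obese pigs, and open triangles are RRBS regions found with at least 3 but not 5 pigs per group, with the MTOR and INPP5D regions of both tables drawn at nearly the same place.

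How many of the 17 regions keep a limma adjusted p under 0.05 rested on the scaling of the libraries. The header gives each library's mean count over bins of the genome, which over the library's constant was lower in obese (1.59 ± 0.42) than in lean libraries (1.94 ± 0.35; SD, n = 11 each; two-sided permutation p = 0.0460, 100000 resamples), so that the deposited counts of obese libraries were lower across the genome as well. With libraries scaled by the median of ratios over the regions or by this genome-wide mean, the 5 higher regions passed and 0 of the 12 lower ones did, against 39.6% and 43.1% of all regions. With that mean as a covariate 2 regions passed (9.97% of all regions), those at chr6:44366201-44367400 in AKT2 and chr3:139858601-139860300 near SLC2A4. The direction of all 17 was the same under each of these, while under the median of ratios the log2 differences of the 12 lower regions shrank from between -0.95 and -0.46 to between -0.68 and -0.15, and those of the 5 higher ones grew from between 0.50 and 0.81 to between 0.81 and 1.10. The median of ratios is taken over regions of which most are lower in obese pigs. In the whole table the higher calls were 2009 as deposited and 2125 under the median of ratios, and the lower calls 5109 and 807, which moved the median log2 difference from -0.67 to -0.37. The sequencing folders in the header each held as many obese as lean libraries (5 and 6 of each group).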

How the data were processed

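Mature adipocytes of lean and obese pigs were sequenced for total RNA, for methylated DNA captured on beads (mDNAcap) and for bisulfite-treated DNA (RRBS). The authors mapped RNA reads to Sscrofa10.2 (STAR 2.3.1) and estimated the deposited FPKM values per gene and library with Cufflinks 2.2.0. For mDNAcap, the authors deposited for each region 11 values per group, each a read count divided by a constant of the library, and the mean signal of each group; the regions had passed a diffReps G-test (window of 1000 bases, p under 0.0001). For RRBS, the authors deposited the mean methylation of each group as a fraction (here in percent) for metilene regions, with values in at least 5 or 3 pigs per group. The authors' columns of fold changes, p-values and q-values were not used.

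FPKM were divided by size factors (median of ratios). Genes whose mean FPKM was 1 or more (10246 of 25285 identifiers; 9 with a failed estimate left out) and all 7401 captured regions were tested with limma 3.58.1 (eBayes with trend, R 4.3.3) on log2(value + 1), with Benjamini-Hochberg adjustment. Single genes had two-sided exact permutation tests and single regions tests with 100000 resamples (scipy 1.17.1). The 7 genes, the lists and the tests were chosen with earlier results of these data known. Named genes were the 7 members, up to 3 further genes per list with the lowest limma p, and for each tested member the 2 genes most like it. Of these, 4 are not reported here. Scripts were tested on simulated data. The paper gives an average number of RNA reads per sample and an RRBS coverage below 1 read per base of the genome. It required at least 5 reads to call methylation. The depth behind single FPKM and RRBS values is unknown. Captured regions of the members held a median of 10 to 35 reads per library, so intervals of single libraries are wide. No coordinates were converted, and exons and strand were not used here.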

Additional observations from a re-analysis of the deposited data

Results flagged for a closer look

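Among 56 groups of 5 pigs (the members and the named genes), 6 had a value whose gap to its neighbour was above 0.71 of the whole range of the group. Chance gives about 1 in 20. Of these, 3 were members: AKT2 was low in obese pig-433 (176), and SLC2A4 was high in the same pig on chromosome 3 (75.5) and on chromosome 12 (32.7). Pig-433 was also the obese pig with the highest TRIB3 (16.7). PPP1R3C was high in obese pig-473 (115), and MAP2K1 was high in lean pig-402 (8.78). The cause was not tested. Without obese pig-433 the log2 difference of RHOQ was 1.16 with an exact permutation p of 0.0159.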

How the results depend on the processing

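The direction of RHOQ and its exact permutation p under 0.05 were the same in all 17 alternatives (log2 difference 0.90 to 1.23, exact p 0.00866 to 0.0317). Of these, dropping the filter or the trend of eBayes cannot change either value. The smallest exact p came from counting both libraries of pig-572 as replicates, which treats 1 pig as more than 1. The number of genes past the adjusted threshold was 1, and 0 with FPKM as deposited, 5 without the filter, and 178 when both libraries of pig-572 counted as replicates. Leaving out 1 pig or library gave 1 to 165 genes, the highest without lean pig-402, and 10 without the first library of pig-572. The number of members past it was 0 throughout. The count of member entries with an exact p under 0.05 was 1, and leaving out 1 pig or library gave 1 to 2 (2 without lean pig-402). Leaving out 1 pig or library gave log2 differences of -0.025 to 0.191 for the INSR entry at chr2:72275693-72357630 and of -0.00105 to 0.126 for MTOR, each lowest without lean pig-525, and of -0.0441 to 0.148 for IRS1 (0.174 without both libraries of pig-572), which turned without obese pig-433 and without lean pig-402 (-0.00316). The captured regions past the threshold were 7118, with 2932 under the median of ratios, 3189 when scaled by the genome-wide mean count and 738 with it as a covariate. At the members they were 17, with 5, 5 and 2. With 0.1 in place of 1 added before the log2, 6822 regions passed in the whole table and 16 at the members. The region that no longer passed was the one inside RHOQ (limma adjusted p = 0.0859). By permutation tests 17 passed, with 7 under the median of ratios and 10 when scaled by the genome-wide mean count. An overlap of at least 1 base, or a distance of 5000 bases, left 6 of 17 captured regions. The RRBS table with at least 3 pigs per group holds 2416 regions in place of 610, and 5 in place of 2 at the members. The cause of these changes was not tested. No paired analysis was possible because lean and obese pigs are different animals whose replicate numbers were given in accession order.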
